A study of Homo sapiens with 10 samples.

Results

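The hypoxia and glycolysis genes described here are 10 genes chosen by symbol, VEGFA, CA9, ADM, NDRG1, BNIP3, SLC2A1, PDK1, ANKRD37, EGLN3 and LDHA, out of 23426 gene symbols measured. All 10 were in the tables, and all 10 were high enough in at least 1 group to be tested. They were followed in MDA-MB-468 and ZR75-1 cells, with and without the kinase inhibitor PKC412, to compare the baseline and the response of a basal-like with those of a luminal cell state.

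Both are established lines from breast cancers, MDA-MB-468 of the basal-like subtype and triple-negative, ZR75-1 of the luminal subtype. PKC412 (midostaurin) inhibits many kinases, and DMSO, its solvent, was the control. Each line was treated for 6 h with DMSO (n = 2) or with PKC412 (n = 3; 1 μM by the labels, while some legends of the study give a lower dose), and the 10 RNA samples were sequenced. Each subtype was represented by 1 line, so that a difference between the lines and a difference between the subtypes cannot be told apart, and no sample was kept in low oxygen.

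Cells sense oxygen through the hypoxia-inducible factors (HIFs). In oxygen, prolyl hydroxylases of the EGLN family mark the HIF alpha subunits, VHL binds the marked protein and it is degraded. When oxygen is scarce or upstream signaling is changed, HIF alpha pairs with ARNT and binds short DNA letters, ACGTG or GCGTG, near genes for blood vessel growth, glucose uptake, glycolysis and acid export. Solid tumors, basal-like breast cancers among them, are known for raised levels of these genes, some of which also respond to other stresses and to growth factor signaling.

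To show where these letters lie in the genes themselves, the 250 bases before each RefSeq transcription start were searched on both strands (GRCh38.p14). Of the 10 genes, 8 had an entry in the promoter table used here, with 10 promoters between them, and VEGFA and NDRG1 are named only. ACGTG or GCGTG occurred in 7 of these 10 promoters, belonging to 6 genes, and in 43.2% of all 35116 promoters of that table (ACGTG in 18.5%, GCGTG in 32.2%). SLC2A1 and EGLN3 had neither in this window. The following stretches of 30 bases, read 5′ to 3′ on the strand of the gene, are shown because they hold matches of genes whose levels are described below. Capitals mark the matches to either motif. A match that lies on the opposite strand appears as its reverse complement, which begins with CAC, and CACGTG is a match on both strands.

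ANKRD37: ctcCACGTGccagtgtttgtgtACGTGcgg
ADM: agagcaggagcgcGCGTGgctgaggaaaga
CA9: ctcgtttccaatgCACGTacagcccgtaca
LDHA: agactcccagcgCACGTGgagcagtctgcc
PDK1: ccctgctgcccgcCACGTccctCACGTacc
BNIP3: CACGCgccgCACGTGccaCACGCacccCAC

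The ANKRD37 stretch lay at chr4:185396676-185396705 on the plus strand and held all 3 of the matches of that promoter. The ADM stretch (chr11:10304959-10304988) and the CA9 stretch (chr9:35673897-35673926), both on the plus strand, held the single match of each promoter. All 3 stretches were inside the 5′ UTR of a GENCODE transcript of the same gene that starts upstream. The LDHA stretch (chr11:18394366-18394395, plus strand) and the BNIP3 stretch (chr10:131982037-131982066, minus strand) each contained CACGTG, as did that of ANKRD37. This LDHA promoter held 5 matches, of which only those in the CACGTG of the stretch are shown. The match of a second LDHA promoter is not shown. The BNIP3 stretch ended inside a further match of its promoter, and the match 104 bases before the start is not shown. The PDK1 stretch (chr2:172556060-172556089, plus strand) ended at the base before the start and was likewise inside the 5′ UTR of a GENCODE transcript. A match is a description of letters and not of a bound site.

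Levels are FPKM, fragments scaled by transcript length, so that genes of different length can be compared, and by library. This scaling left differences between samples, whose median-ratio scaling factors ranged from 0.8088 (ZR75-1 DMSO replicate 1) to 1.148 (MDA-MB-468 PKC412 replicate 1). The tests used log2(FPKM + 1), and a difference is given on that log2 scale with its standard error (SE). A gene was called changed at an adjusted p below 0.05 in limma with Benjamini-Hochberg adjustment over all 16071 genes tested. Nothing in the labels says whether the replicates came from separate cultures, so these p-values measure only the spread between these samples. The FPKM sums ranged from 599228 to 835069, and the number of reads behind them is unknown. The markers fitted the line names in part: all 7 basal-like markers were above 1 FPKM in every MDA-MB-468 sample and only CDH3 was in ZR75-1. CDH3 was higher in ZR75-1, at 17.9 to 25.2 FPKM, than in MDA-MB-468, at 9.56 to 11.6 FPKM. Of the luminal markers, 6 of 7 were also above 1 FPKM in MDA-MB-468. The other was ESR1, at 0.147 to 0.461 FPKM against 2.63 to 8.28 FPKM in ZR75-1. Of the markers of fibroblasts, blood cells and endothelium, 2 of 11, CD68 and COL1A1, reached 1 FPKM in every sample of a group, and PTPRC was at most 0.0651 FPKM. The samples also differed in how FPKM ran along the GC content of transcripts, with slopes of 0.373 and 0.057 log2 per 10 GC points in the MDA-MB-468 DMSO samples, -0.287, -0.024 and -0.119 in its PKC412 samples, 0.314 and -0.192 in the ZR75-1 DMSO samples and -0.107, 0.342 and -0.356 in its PKC412 samples. The lowest value of the line fell in DMSO replicate 1 for 6 of the 10 genes in MDA-MB-468 and for 7 of 9 in ZR75-1, the replicates with the steepest positive slopes among the DMSO samples. The part of this in the results was tested only by an adjustment for GC content and transcript length. That adjustment was made within each line and leaves any GC difference between the lines in place. Its values are given below where it changed a call of the 10 genes, and for some of the other genes whose call it changed.

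At baseline, in DMSO, the 2 lines carried these genes at very different levels. CA9, NDRG1, EGLN3, LDHA, VEGFA, ANKRD37 and ADM were higher in MDA-MB-468, and none of the 10 was called lower. The count of 7 of 10 called compares with 42.4% of all genes tested (26.5% higher and 15.9% lower). For 9 of the 10 genes no MDA-MB-468 sample lay within the range of ZR75-1, against 69.6% of all genes. The median difference was 1.34 for the 10 genes and 0.11 for all genes tested.

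CA9 encodes carbonic anhydrase IX, a cell surface enzyme that helps to regulate pH and is a classical marker of tumor hypoxia. It measured 163 and 138 FPKM in the MDA-MB-468 DMSO samples and 0.0165 and 0 FPKM in those of ZR75-1. The gene was thus the second most abundant of the 10 in one line and at or next to 0 in every sample of the other. The difference was 7.23 (SE 0.14, limma adjusted p = 2.69e-08), but its size depends on the pseudocount and no fold is given. CA9 shares 643 exon bases with ARHGEF39 on the opposite strand (listed under its older symbol, C9orf100). That gene was at 15.1 to 20.2 FPKM in MDA-MB-468 and 2.87 to 5.50 FPKM in ZR75-1, and how far reads were shared between the pair was not tested.

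NDRG1, a stress-responsive gene whose product restrains metastasis in several tumor types, measured 31.2 and 33.1 FPKM in MDA-MB-468 and 1.11 and 1.10 FPKM in ZR75-1. The ratio of means was 29.1, with a difference of 3.98 (SE 0.12, limma adjusted p = 1.92e-07). The replicates within each line were close together and the lines were far apart. EGLN3, the prolyl hydroxylase that is itself induced by HIF and so closes a feedback loop, measured 11.1 and 18.6 FPKM in MDA-MB-468 and 1.29 and 2.34 FPKM in ZR75-1. Its ratio of means was 8.19 (difference 2.48, SE 0.28, limma adjusted p = 0.000174).

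The signaling molecules differed less. VEGFA, the main growth factor of blood vessels, measured 9.11 and 11.7 FPKM in MDA-MB-468 and 1.58 and 3.89 FPKM in ZR75-1, a ratio of means of 3.81 (difference 1.68, SE 0.36, limma adjusted p = 0.00619). ADM, which encodes the vasodilator peptide adrenomedullin, measured 7.485 and 6.91 FPKM against 2.84 and 3.52 FPKM, a ratio of 2.26 (difference 0.975, SE 0.17, limma adjusted p = 0.00175). For both genes the lowest MDA-MB-468 sample was above the highest ZR75-1 sample. ANKRD37, a small ankyrin repeat protein known as a HIF target, was the least abundant of the called genes in MDA-MB-468, at 3.02 and 2.71 FPKM there and 0.666 and 1.201 FPKM in ZR75-1 (ratio 3.06, limma adjusted p = 0.00599).

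Among the metabolic genes only LDHA was called. LDHA, the lactate dehydrogenase subunit that favors making lactate from pyruvate, was the most abundant of the 10 genes in all 4 groups, at 452 and 601 FPKM in MDA-MB-468 and 109 and 217 FPKM in ZR75-1 in DMSO. Its ratio of means was 3.23 (difference 1.75, SE 0.35, limma adjusted p = 0.00421). SLC2A1, the glucose transporter GLUT1, measured 36.8 and 46.6 FPKM in MDA-MB-468 and 27.2 and 51.1 FPKM in ZR75-1, so that the lines overlapped (difference 0.15, 95% interval -0.57 to 0.86, limma adjusted p = 0.755). PDK1, a kinase that switches off pyruvate dehydrogenase, measured 0.959 and 1.495 FPKM in MDA-MB-468 and 0.165 and 0.507 FPKM in ZR75-1 (difference 0.74, 95% interval 0.13 to 1.35, limma adjusted p = 0.0531). BNIP3, a mitochondrial protein of mitophagy and cell death, was the only gene whose DMSO samples all lay lower in MDA-MB-468, at 9.12 and 10.8 FPKM against 12.4 and 24.8 FPKM, and it was not called (difference -0.77, 95% interval -1.51 to -0.03, limma adjusted p = 0.0902). The calls of both depended on the setting. PDK1 was called in 6 of the 17 alternatives, among them a pseudocount of 0.1 (adjusted p = 0.0349), median-ratio scaling (adjusted p = 0.0351) and the GC adjustment (0.94, adjusted p = 0.000148). BNIP3 was called lower in MDA-MB-468 with median-ratio scaling (-0.94, adjusted p = 0.0103), without ZR75-1 DMSO replicate 1 (-1.24, adjusted p = 0.0133) and with the GC adjustment (-0.77, adjusted p = 0.00535). BNIP3 has 39 pseudogene copies in the annotation and LDHA has 6, and how reads were divided among them is not given in the sources used here.

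**Figure D1:**
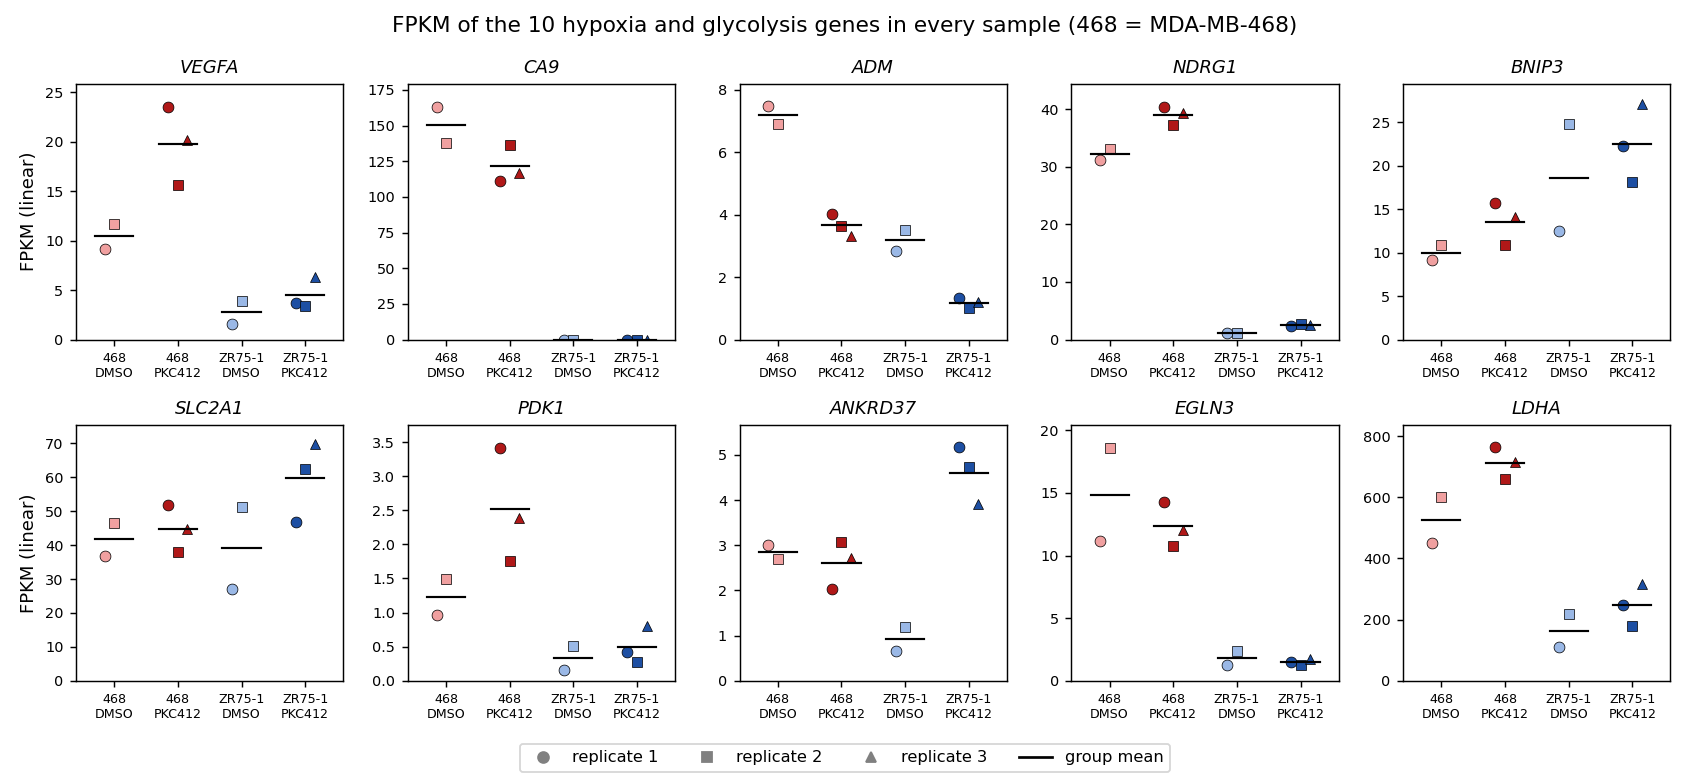
FPKM of each of the 10 genes on a linear axis from 0, with 1 point per sample, the marker shape giving the replicate number and the bar the group mean. CA9 lay between 111 and 163 FPKM in MDA-MB-468 and at or next to 0 in ZR75-1, ADM was lower in every PKC412 sample than in every DMSO sample of its line, and ANKRD37 was at 3.90 to 5.17 FPKM in PKC412-treated ZR75-1.

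In PKC412 the same comparison of the lines gave 8 of 10 genes called, against 58.6% of all genes tested (37% higher and 21.6% lower), with 9 of 10 genes not overlapping against 64.4%. CA9 (difference 6.92), NDRG1 (3.50), EGLN3 (2.41), VEGFA (1.95), LDHA (1.56), PDK1 (1.22) and ADM (1.09) were higher in MDA-MB-468 by limma, and ANKRD37 was lower. The median difference of the 10 genes was 1.39, against 0.20 for all genes. PDK1 was called here at 2.52 ± 0.83 FPKM in MDA-MB-468 and 0.497 ± 0.271 FPKM in ZR75-1 (mean ± SD, n = 3 each, limma adjusted p = 0.00151). The PDK1 annotation shares 445 exon bases with an antisense RNA.

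ANKRD37 thus stood on different sides of 0 in the 2 comparisons of the lines. In PKC412 it measured 2.04, 3.07 and 2.72 FPKM in MDA-MB-468 and 5.17, 4.72 and 3.90 FPKM in ZR75-1, so that the groups did not overlap. The difference was -0.64 (SE 0.18, limma adjusted p = 0.0147), with a ratio of means of 0.567. The call was lost without MDA-MB-468 PKC412 replicate 1 (adjusted p = 0.0576) or without ZR75-1 PKC412 replicate 1 (adjusted p = 0.0550). SLC2A1 (-0.40, 95% interval -0.98 to 0.19, limma adjusted p = 0.211) and BNIP3 (-0.69, 95% interval -1.29 to -0.08, limma adjusted p = 0.0519) were not called. BNIP3 was called lower in 5 of the 17 alternatives, median-ratio scaling (-0.87, adjusted p = 0.00416) and the GC adjustment (-0.68, adjusted p = 0.00285) among them.

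**Figure D2:**
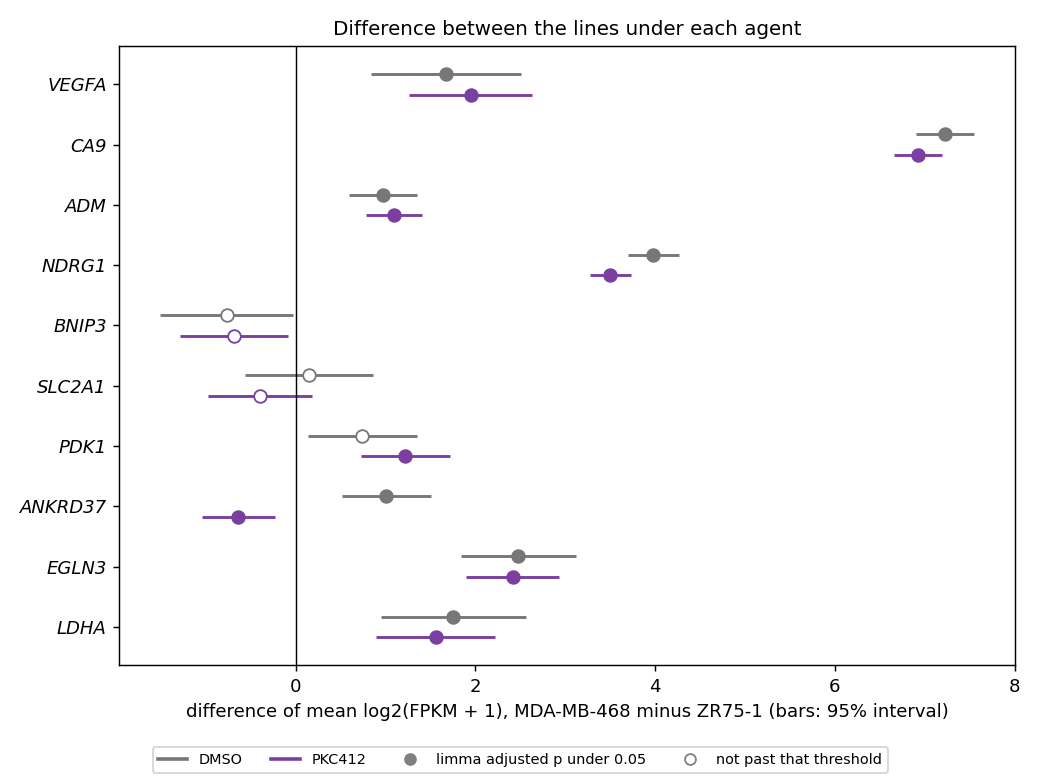
Difference between the lines on the log2(FPKM + 1) scale, MDA-MB-468 minus ZR75-1, for each gene in DMSO and in PKC412, with bars for the 95% interval and filled points for a limma adjusted p under 0.05. CA9 and NDRG1 lie farthest to the right under both agents, and ANKRD37 is the gene with filled points on both sides of 0 (1.01 in DMSO and -0.64 in PKC412).

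The order of the levels within a line was led by LDHA in every group. In DMSO-treated MDA-MB-468 it was followed by CA9, SLC2A1, NDRG1 and EGLN3, with no overlap between neighbors down to EGLN3, then by VEGFA, which overlapped EGLN3 and BNIP3, by BNIP3, and by ADM, ANKRD37 and PDK1. In DMSO-treated ZR75-1 the order was LDHA, SLC2A1 and BNIP3 without overlap, then ADM, VEGFA and EGLN3, each overlapping the next, NDRG1 and ANKRD37, which overlapped, PDK1 and, at 0 or next to it, CA9. In PKC412 ANKRD37 held rank 4 in ZR75-1, overlapping VEGFA, and rank 9 in MDA-MB-468, overlapping PDK1.

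After PKC412 treatment of MDA-MB-468 cells, ADM fell and no other of the 10 genes was called. That is 1 of 10 genes, against 1.26% of all genes tested (0.691% higher and 0.566% lower). ADM measured 7.485 and 6.91 FPKM in DMSO and 4.02, 3.65 and 3.33 FPKM in PKC412, without overlap, a ratio of means of 0.509. The difference was -0.815 (SE 0.15, limma adjusted p = 0.0498), just inside the threshold. Each of the 10 samples, when left out, took the adjusted p above 0.05, to between 0.0530 and 0.380, while the difference stayed between -0.87 and -0.76. None of the 10 genes reached a 3-fold ratio of means in this line, against 7.21% of the genes above the same FPKM limit.

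The other genes of MDA-MB-468 showed shifts that did not pass the test. VEGFA measured 23.5, 15.6 and 20.2 FPKM in PKC412, all above the DMSO samples (difference 0.85, 95% interval 0.09 to 1.61, limma adjusted p = 0.280), and PDK1 measured 3.41, 1.76 and 2.39 FPKM, also all above (difference 0.65, 95% interval 0.09 to 1.198, limma adjusted p = 0.265). NDRG1 (40.3, 37.2 and 39.4 FPKM, difference 0.27, limma adjusted p = 0.294), BNIP3 (15.8, 10.9 and 14.1 FPKM, difference 0.40) and LDHA (764, 659 and 716 FPKM, difference 0.45) had no overlap with DMSO either, with every PKC412 sample on the high side. CA9 lay on the low side, at 111, 136 and 117 FPKM (difference -0.31, 95% interval -0.61 to -0.01, limma adjusted p = 0.299). In all, 7 of the 10 genes, ADM included, did not overlap between the treatments, against 55.9% of all genes tested, and the median difference of the 10 was 0.19 against 0.11. After adjustment for GC content the LDHA difference was 0.01, that of VEGFA 0.59, that of PDK1 0.29, that of BNIP3 0.18 and that of CA9 -0.06. SLC2A1 (0.10), ANKRD37 (-0.11) and EGLN3 (-0.22) overlapped between the treatments in this line.

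In ZR75-1 cells ANKRD37 and NDRG1 rose and ADM fell after PKC412 treatment. That is 3 of 10 genes, against 0.946% of all genes tested (0.747% higher and 0.199% lower). The same 3 genes were those without overlap between the treatments, against 21.7% of all genes. The median difference of the 10 genes was 0.45, against 0.07.

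ANKRD37 measured 0.666 and 1.201 FPKM in DMSO and 5.17, 4.72 and 3.90 FPKM in PKC412. The lowest treated sample was thus above 3 times the highest control sample. The ratio of means was 4.93 and the difference 1.54 (SE 0.20, 95% interval 1.08 to 2.00, limma adjusted p = 0.0144). It was the only one of the 10 genes with a 3-fold ratio, against 4.09% of the genes above the same limit. The call was lost without ZR75-1 DMSO replicate 1 (difference 1.34, adjusted p = 0.110), ZR75-1 PKC412 replicate 1 (1.47, adjusted p = 0.0602) or MDA-MB-468 PKC412 replicate 3 (1.54, adjusted p = 0.0514). ANKRD37 shares 909 exon bases with UFSP2, a protease gene on the opposite strand. UFSP2 measured 7.38 and 9.575 FPKM in DMSO and 8.42, 3.88 and 9.04 FPKM in PKC412 in ZR75-1 (difference -0.29, limma adjusted p = 0.779).

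NDRG1 measured 1.11 and 1.10 FPKM in DMSO and 2.27, 2.725 and 2.60 FPKM in PKC412, a ratio of means of 2.30 (difference 0.75, SE 0.11, limma adjusted p = 0.0267). It remained far below its MDA-MB-468 level. ADM measured 2.84 and 3.52 FPKM in DMSO and 1.32, 1.02 and 1.215 FPKM in PKC412, a ratio of 0.373, just short of a 3-fold decrease (difference -0.93, SE 0.15, limma adjusted p = 0.0364). With 1 sample left out, the NDRG1 adjusted p was between 0.0366 and 0.142, under 0.05 only without ZR75-1 PKC412 replicate 2, and that of ADM was between 0.0555 and 0.113. The NDRG1 call was also lost with median-ratio scaling (0.69, adjusted p = 0.0696). The differences themselves ranged from 0.71 to 0.80 for NDRG1 and from -1.05 to -0.82 for ADM.

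The remaining genes of ZR75-1 overlapped between the treatments. SLC2A1 measured 27.2 and 51.1 FPKM in DMSO and 46.7, 62.5 and 69.7 FPKM in PKC412 (difference 0.64, 95% interval -0.01 to 1.29, limma adjusted p = 0.449). LDHA measured 109 and 217 FPKM in DMSO and 248, 179 and 315 FPKM in PKC412 (difference 0.65, 95% interval -0.09 to 1.38, limma adjusted p = 0.502). DMSO replicate 1 was the low sample for both. After adjustment for GC content the LDHA difference was 0.45 with an adjusted p of 0.0353, so that LDHA was called under that setting alone. VEGFA (3.69, 3.41 and 6.28 FPKM in PKC412, difference 0.58), BNIP3 (22.3, 18.1 and 27.2 FPKM, 0.32), PDK1 (0.417, 0.275 and 0.799 FPKM, 0.16) and EGLN3 (1.47, 1.30 and 1.72 FPKM, -0.15) had adjusted p-values of 0.559, 0.746, 0.869 and 0.889 in limma. CA9 was at 0, 0.0210 and 0 FPKM in PKC412, so that no response could be measured.

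**Figure D3:**
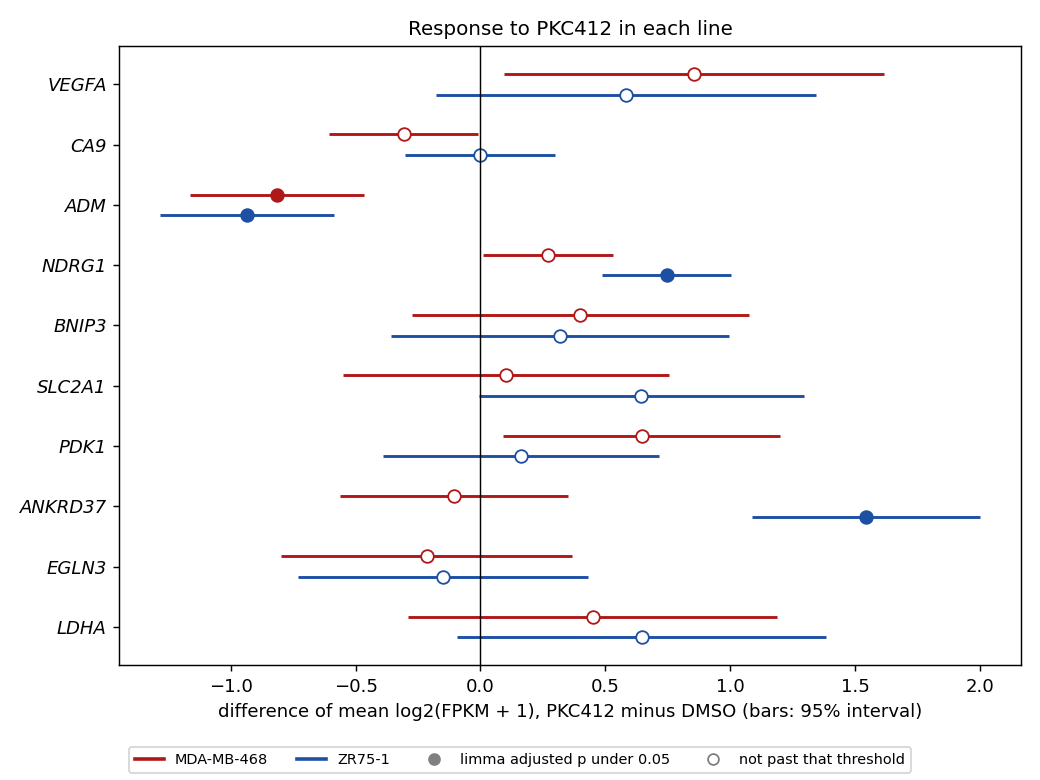
Response to PKC412 on the log2(FPKM + 1) scale, PKC412 minus DMSO, for each gene in the 2 lines, with bars for the 95% interval and filled points for a limma adjusted p under 0.05. ADM lies to the left of 0 in both lines (-0.815 and -0.93), and ANKRD37 lies at 1.54 in ZR75-1 and at -0.11 in MDA-MB-468.

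The difference between the responses of the lines was tested as an interaction. None of the 10 genes was called by limma, against 0.268% of all genes tested, and 2 of the 10, ANKRD37 and NDRG1, had an unadjusted p under 0.05, as did 7.05% of all genes. For ANKRD37 the response in MDA-MB-468 was lower by 1.65 than that in ZR75-1 (difference -1.65, SE 0.28, 95% interval -2.29 to -1.003, limma adjusted p = 0.0840). It passed the threshold after adjustment for GC content (-1.52, adjusted p = 0.0122) and in limma without a trend, and in none of the other alternatives. For NDRG1 the difference was -0.48 (95% interval -0.84 to -0.11, limma adjusted p = 0.516). For ADM, called in both lines, it was 0.12 (95% interval -0.37 to 0.61), and for VEGFA it was 0.27 (95% interval -0.80 to 1.35).

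The HIF subunits and their regulators were followed beside these targets. HIF1A, the subunit for the acute response, measured 0.579 and 2.20 FPKM in DMSO and 15.3, 4.42 and 8.06 FPKM in PKC412 in MDA-MB-468. In ZR75-1 it measured 0.354 and 4.15 FPKM in DMSO and 2.59, 0.843 and 9.96 FPKM in PKC412. The spread within groups was wide and neither response was called (2.05, SE 0.86, limma adjusted p = 0.298, and 0.66, SE 0.86, limma adjusted p = 0.844). The GC content of its transcript, 36.4%, is above that of only 3.7% of genes. For the other core genes the response is given first for MDA-MB-468 and then for ZR75-1. EPAS1, the HIF2 alpha subunit, had differences of 0.65 and 1.28, ARNT of 0.39 and 0.21, EGLN1 of 0.73 and 0.45, EGLN2 of -0.43 and -0.57, VHL of 0.43 and -0.28, and HIF1AN, the asparaginyl hydroxylase of HIF, of 0.37 and 0.39, all with limma adjusted p-values above the threshold. EPAS1 in ZR75-1, at 4.06 and 7.43 FPKM in DMSO and 12.03, 12.7 and 21.5 FPKM in PKC412, was called higher with the GC adjustment (1.02, adjusted p = 0.0218) and under no other alternative.

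Of this list of 19 HIF subunits and regulators, 18 were tested. None was called in MDA-MB-468 (5 had an unadjusted p under 0.05 in limma, against 16.4% of all genes). In ZR75-1, 2 rose, where 0.946% of all genes were called. ARNT2 was called in MDA-MB-468 with the GC adjustment (0.45, adjusted p = 0.0327). In ZR75-1, ARNT2, a relative of ARNT, measured 0.674 and 1.235 FPKM in DMSO and 2.38, 2.43 and 3.445 FPKM in PKC412 (difference 0.95, limma adjusted p = 0.0438). SIAH2, a ubiquitin ligase that acts on the prolyl hydroxylases, measured 26.3 and 35.2 FPKM in DMSO and 55.0, 53.6 and 59.2 FPKM in PKC412 in ZR75-1 (difference 0.86, limma adjusted p = 0.0468). Both calls were lost in 13 of 18 alternatives, a pseudocount of 0.1 and no filter on low values among them. Between the lines in DMSO, 1 of the 18 was higher in MDA-MB-468 and 7 were lower, against 26.5% higher and 15.9% lower over all genes. RBX1, a subunit of the VHL ligase, was the higher one, at 243 against 112 FPKM. EGLN2 (78.2 against 283 FPKM), VHL (6.51 against 12.02 FPKM) and HIF1AN (4.28 against 8.04 FPKM) were among the lower ones, with limma adjusted p-values of 0.000306, 0.0123 and 0.0175.

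Among 28 other HIF-responsive genes, 2 rose and 1 fell in MDA-MB-468, where 1.26% of all genes were called, and 2 rose in ZR75-1, where 0.946% were. DDIT4, which encodes an inhibitor of mTORC1, measured 102 and 93.5 FPKM in DMSO and 225, 211 and 232 FPKM in PKC412 in MDA-MB-468 (difference 1.18, SE 0.10, limma adjusted p = 0.00275). In ZR75-1 it measured 18.3 and 21.5 FPKM in DMSO and 15.5, 16.2 and 14.8 FPKM in PKC412 (difference -0.34, limma adjusted p = 0.276). It was the single gene of the lists called for a difference between the responses (1.52, SE 0.15, limma adjusted p = 0.00791). With the GC adjustment 5 genes of the lists were called, 2 with a higher and 3 with a lower response in MDA-MB-468. Besides DDIT4, STC2, ANGPTL4 and RAB20 were among them (limma adjusted p = 0.00235, 0.00414 and 0.0134). STC2, a secreted glycoprotein, rose from 6.72 ± 0.24 FPKM (SD, n = 2) to 17.95 ± 2.93 FPKM (SD, n = 3) in MDA-MB-468 by limma (adjusted p = 0.0162), and RAB20, a small GTPase of vesicle traffic, fell from 40.0 ± 1.497 to 16.0 ± 0.98 FPKM (adjusted p = 0.00897). In ZR75-1, ANGPTL4, a secreted regulator of lipoprotein lipase, rose from 2.13 ± 0.59 to 6.17 ± 0.94 FPKM (limma adjusted p = 0.0199) and the glucose transporter SLC2A3 from 1.02 ± 0.18 to 2.42 ± 0.40 FPKM (limma adjusted p = 0.0267). Of the 18 alternatives, the call was lost in 1 for DDIT4 in MDA-MB-468, in 3 for RAB20, in 6 for STC2 and in 11 each for ANGPTL4 and SLC2A3.

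In the lists of glycolytic enzymes and of pyruvate and lactate handling, no gene was called for PKC412. The glucose transporter SLC2A3, called in ZR75-1, belonged to the HIF-responsive list. Of 16 glycolytic enzymes, none passed the test in either line, where 1.26% and 0.946% of all genes did. By limma, 0 and 1 had an unadjusted p under 0.05, against 16.4% and 11.2% of all genes. The median differences were 0.05 for MDA-MB-468 and 0.10 for ZR75-1. Of 14 tested genes of pyruvate and lactate handling, none passed in either line, with medians of 0.46 and 0.28. Of these, 2 and 1 had an unadjusted p under 0.05 by limma, against the same 16.4% and 11.2%. Between the lines in DMSO, 5 glycolytic enzymes were higher and 4 lower in MDA-MB-468, which is 9 of 16 against 42.4% of all genes. LDHB, the lactate dehydrogenase subunit that pairs with LDHA, was at 120 ± 14.7 FPKM in MDA-MB-468 and 9.39 ± 2.32 FPKM in ZR75-1 (SD, n = 2 each, limma adjusted p = 3.32e-05). TPI1 was at 307 against 1353 FPKM, ENO2 at 4.005 against 36.0 FPKM and GAPDH at 4942 against 13290 FPKM, all lower in MDA-MB-468. Of the 14 genes of pyruvate and lactate handling, 4 were called between the lines in DMSO, against 42.4% of all genes. In MDA-MB-468, 1 was higher, PDHA1 (42.3 against 26.5 FPKM), and 3 were lower. Among the lower were the lactate exporter SLC16A3 (11.1 against 148 FPKM) and the PDK1 paralog PDK2 (3.42 against 28.3 FPKM), with limma adjusted p = 1.08e-05 and 2.35e-06.

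Partners and paralogs gave a last group, of which 18 of 20 were tested. None was called for PKC412 in either line. In each, 2 had an unadjusted p under 0.05 by limma, against 16.4% of all genes in MDA-MB-468 and 11.2% in ZR75-1. Between the lines in DMSO, 6 were higher and 6 lower in MDA-MB-468, again against 42.4% of all genes. RAMP1 and RAMP2, which attach to the receptor CALCRL, were lower there, at 2.15 against 79.0 FPKM and 0.0473 against 1.69 FPKM. CALCRL itself was too low to be tested. NRP2, a coreceptor for VEGF family ligands, was at 1.73 and 2.115 FPKM in MDA-MB-468 and at 0.00655 and 0 FPKM in ZR75-1. CA12, the other membrane carbonic anhydrase of tumors and one of the HIF-responsive list, was the reverse of CA9. It was at 0.0789 and 0.0917 FPKM in MDA-MB-468 and at 79.0 and 107 FPKM in ZR75-1 (difference -6.42, limma adjusted p = 4.20e-07). Of the 28 genes of that list, 15 were called between the lines in DMSO, against 42.4% of all genes. In MDA-MB-468, 10 were higher and 5 lower, CA12 among the lower.

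**Figure D4:**
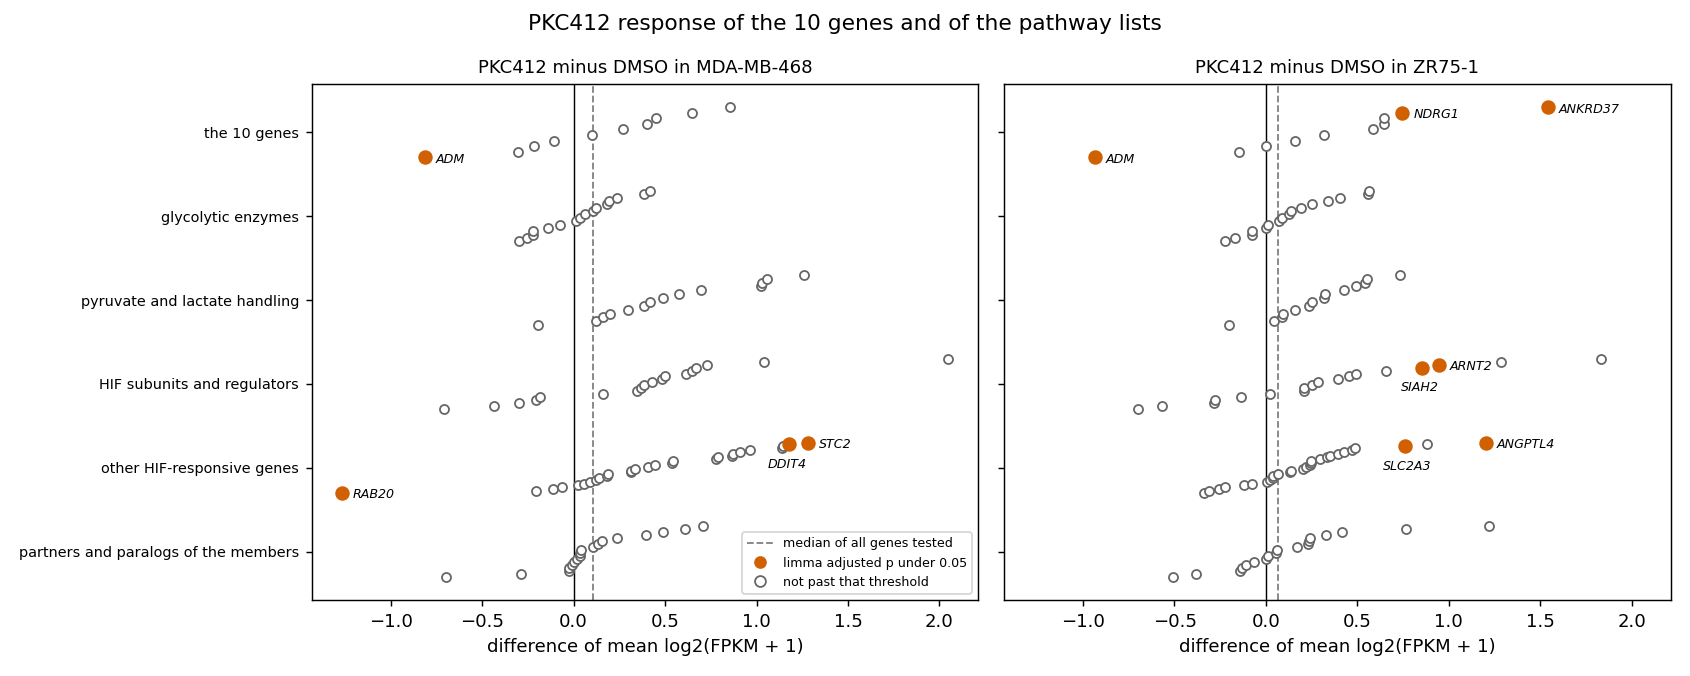
Response to PKC412 on the log2(FPKM + 1) scale in MDA-MB-468 (left) and ZR75-1 (right), with 1 point per tested gene, a row for the 10 genes and for each pathway list, filled and named points for a limma adjusted p under 0.05 and a dashed line at the median of all genes (0.11 and 0.07). The rows of glycolytic enzymes and of pyruvate and lactate handling hold no filled point in either line.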

How the data were processed

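RNA of MDA-MB-468 and ZR75-1 cells treated with DMSO (n = 2 per line) or PKC412 (n = 3 per line) was sequenced (TruSeq 2.0, HiSeq2000). The methods name triplicates, and 2 DMSO samples per line were analysed here. The submitters' processing notes name CASAVA 1.82, TopHat2 and hg19; the annotation, any use of strand and the filters are not given in the sources used here. The authors deposited FPKM values per gene symbol, computed with an in-house pipeline. Values with no step of a single read and down to 2.194e-318 leave the depth unknown, so precision came from the spread between samples.

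Groups came from the sample labels. Tests were made with limma 3.58.1 (R 4.3.3) on log2(FPKM + 1), with 4 group means over all 10 samples, eBayes with a trend and the 16071 genes whose mean exceeded 0.1 FPKM in 1 or more groups. The fold is understated for low genes on this scale. Genes changed at least 3-fold had a ratio of mean FPKM of 3 or more, or its inverse, without a pseudocount and without a test. An exact permutation test of 2 against 3 samples cannot give a p below 0.1 and was not used. The code was tested on simulated data.

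The 10 genes and the 5 pathway lists were chosen with earlier results of these data known. Beside the 10 genes, the text could name 7 core HIF genes, list genes called for PKC412 and up to 4 genes per list between the lines. Of the genes that overlap a member, ARHGEF39 and UFSP2 were named, after their values were seen. VEGFA also shares 188 exon bases with an antisense RNA, and SLC2A1 shares 112 and 128 with noncoding RNAs. Alternatives were a pseudocount of 0.1, other FPKM filters, median-ratio scaling, a replicate block, no trend, each line alone, each sample left out and, added after the data had been seen, an adjustment for GC content and transcript length (GENCODE release 29; 20643 symbols, 88.1%, matched). Python 3.11.15, pandas 2.3.3 and matplotlib 3.10.9 were used for the rest. Promoter sequences were taken from RefSeq (GRCh38.p14), which is not the build of the files.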

Additional observations from a re-analysis of the deposited data

Results flagged for a closer look

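DDIT4, one of the other HIF-responsive genes, was the single result that stood out for a difference between the lines. Its response to PKC412 was 1.52 higher in MDA-MB-468 than in ZR75-1 on the log2 scale (1.516, SE 0.15, limma adjusted p = 0.00791 for the interaction). Every PKC412 sample was above both DMSO samples in MDA-MB-468, at 211 to 232 against 93.5 to 102 FPKM, and every PKC412 sample was below both DMSO samples in ZR75-1, at 14.8 to 16.2 against 18.3 to 21.5 FPKM, where the response itself was not called. The interaction kept its call in every alternative run apart from the replicate block. With 2 or 3 samples in a group, no single sample could be tested as far from the others.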

How the results depend on the processing

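The depth is unknown, so it limits the values by an amount that cannot be stated. Without a DMSO sample, the remaining one was assumed to vary like the other groups. All 7 calls between the lines in DMSO remained under the 17 alternatives, and those in PKC412 did so except for ANKRD37. The number of the 10 genes called between the lines was 7 to 9 in DMSO and 7 to 10 in PKC412. For the response to PKC412, the count in MDA-MB-468 (1) was 0 with a pseudocount of 0.1, with a replicate block, with the line alone and without any sample (0 to 0). That in ZR75-1 (3) was 0 with a replicate block or with the line alone and 0 to 2 with a sample left out, and its 3-fold count (1) was 0 with a pseudocount of 1 and 1 to 2 with a sample left out. The count for the difference of the responses (0) was 1 without a trend and 1 with the GC adjustment, ANKRD37 in both cases. For the pathway lists the count in MDA-MB-468 (3) was 0 with a block, 5 with the GC adjustment and 1 to 3 with a sample left out. In ZR75-1 (4) it was 0 with a pseudocount of 0.1, a block or the line alone, 2 without a filter, 7 with the GC adjustment and 0 to 3 with a sample left out. For the difference (1) it was 3 with median-ratio scaling, 2 without a trend, 5 with the GC adjustment, 0 with a block and 1 to 2 with a sample left out. Where no cause is named here, the cause was not tested.

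The replicate numbers were not taken to pair the samples, since not every pair's deviations correlated. Between same-numbered DMSO and PKC412 samples the correlations were -0.688 and -0.608 in MDA-MB-468, 0.123 and -0.627 in ZR75-1. Between same-numbered samples of the 2 lines they were 0.846 in DMSO (1 value, since 2 samples deviate as mirror images) and -0.249, 0.539 and -0.007 in PKC412. With a replicate block over both lines, the counts of the 10 genes called between the lines were 7 in DMSO and 8 in PKC412, as without it. A fit with the replicate block left 2 residual degrees of freedom and called 0 of all genes for PKC412 in either line, with lowest adjusted p-values of 0.0677 and 0.0623. With the block the CA9 difference in ZR75-1 was 0.003, that of ARNT -0.01 and that of HIF1A -0.038, and the differences of the responses were 0.011 for EGLN3, -0.001 for EGLN2 and 0.078 for HIF1AN (0.005 with a pseudocount of 0.1). All these had been on the other side of 0, and none was called. Other reversals of uncalled values were SLC2A1 in MDA-MB-468 (-0.019 with median-ratio scaling and -0.063 with the GC adjustment), SLC2A1 between the lines in DMSO (-0.032 with median-ratio scaling), ANKRD37 in MDA-MB-468 (0.064 with the GC adjustment), ARNT (with the GC adjustment, -0.006 for MDA-MB-468 and -0.062 for ZR75-1) and HIF1A between the lines in DMSO (0.079 with the GC adjustment).

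With 1 sample left out, further uncalled differences crossed 0. In MDA-MB-468 those of SLC2A1 ranged from -0.064 to 0.27, of ANKRD37 from -0.20 to 0.012 and of EGLN3 from -0.56 to 0.13. In ZR75-1 those of CA9 ranged from -0.014 to 0.01, of BNIP3 from -0.15 to 0.79, of PDK1 from -0.024 to 0.35, of EGLN3 from -0.42 to 0.12, of ARNT from -0.01 to 0.40, of EGLN1 from -0.042 to 0.95 and of HIF1A from -0.30 to 1.62. For the difference of the responses they were -0.19 to 0.73 for VEGFA, -0.39 to 0.55 for BNIP3, -0.41 to 0.28 for EGLN3, -0.69 to 0.30 for LDHA, -0.013 to 0.40 for ARNT, -0.21 to 0.77 for EGLN1, -0.16 to 0.43 for EGLN2 and -0.21 to 0.16 for HIF1AN. Between the lines they were -0.30 to 0.59 for SLC2A1, -0.045 to 0.94 for EGLN1, -0.016 to 0.72 for EPAS1 and -1.20 to 0.73 for HIF1A in DMSO, and -0.28 to 0.083 for ARNT and -0.26 to 0.054 for VHL in PKC412.

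The counts over all genes moved as well. In MDA-MB-468, 202 genes were called, against 116 with a pseudocount of 0.1, 67 with the line alone, 578 with the GC adjustment and 65 to 324 with a sample left out. In ZR75-1, 152 were called (120 higher), against 2 with the line alone, 457 with the GC adjustment (277 higher) and 59 to 183 with a sample left out. For the difference of the responses, 43 were called (11 higher), against 27 with a pseudocount of 0.1, 134 without a filter, 68 without a trend, 212 with the GC adjustment (79 higher) and 16 to 64 with a sample left out. Genes with a 3-fold ratio numbered 1078 and 596 in MDA-MB-468 and ZR75-1, against 237 and 186 with a pseudocount of 1, 2836 and 2742 without a filter, and 613 and 295 with a filter at 1 FPKM. With the GC adjustment there were 641 in MDA-MB-468, and with a sample left out 646 to 2136 and 490 to 2197.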
